A study of Arabidopsis thaliana with 248 samples.

Results

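The TE genes of the heterochromatic knob on chromosome 4 of Arabidopsis thaliana were examined in every genotype for which gene counts could be assigned. A TE gene is an annotated open reading frame or transcript unit of a transposable element (TE). The members were all genes annotated as TE genes on chromosome 4 that start from 1.5 Mb to below 2.4 Mb in TAIR10, and there were 115 of them among 3903 TE genes and 33602 genes. No measured value enters this rule, though it was set with earlier results of these data known. The first member, AT4G03530, starts at 1566068 and the last, AT4G04655, ends at 2364944. Just outside the window lie AT4G03310 below, at 1460159 to 1464144, with 61 counts over the WT and 24 over the suvh4/5/6 libraries of the ldl2 experiment, and AT4G04820 above, at 2443692 to 2444510, with 24 and 55. Just inside, AT4G03530 had 0 and 227 and AT4G04655 had 75 and 50. Member lengths ran from 375 to 7527 bases with a median of 1969. The reference annotation gives no element family for the members, so none is named by family.

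In the Columbia accession the short arm of chromosome 4 carries a knob of condensed chromatin rich in TEs, which arose when an inversion moved pericentromeric sequence into the arm and which is missing from some other accessions. TEs of Arabidopsis are kept silent by 2 modifications that maintain each other. SUVH4, SUVH5 and SUVH6 methylate lysine 9 of histone H3 (H3K9me) where they find methylated cytosines outside CG sites. CMT2 and CMT3 methylate those cytosines where they find H3K9me. Removing either set of enzymes removes both marks. LDL2 is a homologue of the lysine demethylase LSD1 that removes methylation of H3K4, a mark of transcription, and ASHH3 is a histone methyltransferase of the ASH1 class.

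All plants were 2-week-old seedlings of the Col-0 background, and mRNA of whole seedlings was sequenced with 3 libraries per genotype. One experiment had 9 genotypes and 27 libraries. These were wild type (WT), the triple mutant suvh4/5/6, the double mutant cmt2/3, both of these with ldl2, the F1 plants of suvh4/5/6 mother and cmt2/3 father (sxc), the reciprocal F1 (cxs), and the 2 F1 crosses made from parents that both carried ldl2 (sxc ldl2 and cxs ldl2). An F1 plant has received 1 functional copy of each SUVH and CMT gene from 1 parent only, so that both enzyme sets return on chromosomes that had lost the marks, while an ldl2 F1 still lacks LDL2. The second experiment had WT, cxs and cxs ashh3, the F1 of parents that both carried ashh3, with 9 libraries. The mutants lack the enzymes in the whole plant, and no tissue or cell type was separated. In such bulk samples fewer cells that express a gene and less RNA per cell cannot be told apart. The study's methods call the replicates independent biological replicates, and P values measure the spread between them.

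Library totals were 8448989 to 12942034 counts in the ldl2 experiment and 8252720 to 10656469 in the ashh3 experiment, and every pair of replicates differed by more than sampling noise. Of the mutated genes, SUVH4 fell in suvh4/5/6 from 13.8 ± 0.487 to 3.69 ± 0.243 counts per 1e6 counts (CPM), SUVH5 from 4.95 ± 0.363 to 1.18 ± 0.694 CPM and CMT3 in cmt2/3 from 35.9 ± 3.07 to 9.83 ± 1.59 CPM (SD, n = 3). ASHH3 stood at 12.5 ± 0.91 CPM in cxs ashh3, 17.4 ± 1.66 CPM in cxs and 19.5 ± 3.01 CPM in WT. In cxs ashh3 it was called lower against WT but not against cxs. SUVH6, CMT2 and LDL2 were not called lower in the mutants that carry their alleles. Reads from a mutant allele can lie outside its disrupted part, so these 3 genes do not check the labels. Replicate 2 of cxs ldl2 stood apart. It detected 30088 genes where the next highest library of its experiment detected 27758. Its 3 markers of green tissue summed to 11140 CPM against at least 22210 CPM in the other libraries of that experiment. Markers of green tissue were high in every library. Summed over 6 genes, seed markers stayed at or below 5.79 CPM in the ldl2 experiment and reached 4.21, 19.4 and 128 CPM in cxs of the ashh3 experiment, against 0.702 to 10.3 CPM in its WT and 0.314 to 0.490 CPM in cxs ashh3; their part in the results of that experiment was not tested.

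Most of the knob was hardly transcribed. In the ldl2 experiment 112 of the 115 members had at least 1 count over the 27 libraries, 71 had at least 10 and 20 had at least 100. In the ashh3 experiment 65 had at least 1 count over 9 libraries, 14 at least 10 and 3 at least 100, and 50 had none. For each TE gene the strand with the larger sum of reads had been kept, which was the antisense strand for 45 members in the ldl2 experiment and for 23 in the other. The strand differed between the tables for 30 members, so the 2 experiments were never tested against each other. A further limit is that neighbouring members often shared 1 set of counts. In the ldl2 experiment 44 members fell into 15 runs of neighbours whose counts were the same in every library, such as AT4G03975 to AT4G03980, where 7 neighbours had the same 25 counts. Such low counts are not separate measurements. Of the 18 members that passed a test in any comparison, none stood in these runs, and 2, AT4G03990 and AT4G04170, stood in runs of the ashh3 experiment only. Members outside the runs can still share counts with neighbours in single libraries. Among the 18, AT4G03910 and AT4G03923 had 3, 0 and 0 counts in WT, as had their neighbour AT4G03912. AT4G03970 had 5, 0 and 0, as had AT4G03975.

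Summed over all 115 members, the level in WT was 15.5 ± 3.81 CPM, 0.534% of all counts in TE genes. It was 110 ± 14.5 CPM in suvh4/5/6, 155 ± 14.97 in suvh4/5/6 ldl2, 54.2 ± 8.45 in cmt2/3 and 57.6 ± 7.503 in cmt2/3 ldl2. Every library of these 4 genotypes exceeded every WT library. In the F1 plants the sum was 19.2 ± 3.91 CPM in sxc and 26.3 ± 5.91 in cxs. The sxc libraries, at 22.9, 15.1 and 19.6 CPM, overlapped the WT libraries at 18.8, 11.4 and 16.3 CPM. In sxc ldl2 it was 58.1 ± 15.8 CPM, and its libraries at 39.9, 66.7 and 67.8 CPM did not overlap those of sxc. In cxs ldl2 the libraries held 37.5, 114 and 46.0 CPM, the middle value being replicate 2, and the other 2 libraries also exceeded all 3 cxs libraries at 28.1, 31.2 and 19.8 CPM. Relative to WT the sum stood at 7.08 in suvh4/5/6, where the same ratio over 3189 pericentromeric TE genes was 3.44 and over the 599 other TE genes 3.21. In sxc the ratios were 1.24, 1.66 and 1.95 in that order, and in cxs 1.70, 1.74 and 1.93. These sums rest on few genes and were not tested. They also add counts shared by neighbours once for each member, in the WT libraries under the ratios as well. In replicate 1 of WT, AT4G03975 to AT4G03981 each added 5 counts to a sum of 200. In replicate 2 of cxs ldl2, AT4G03660 to AT4G03690 each added 22 counts to a sum of 1365.

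**Figure D1:**
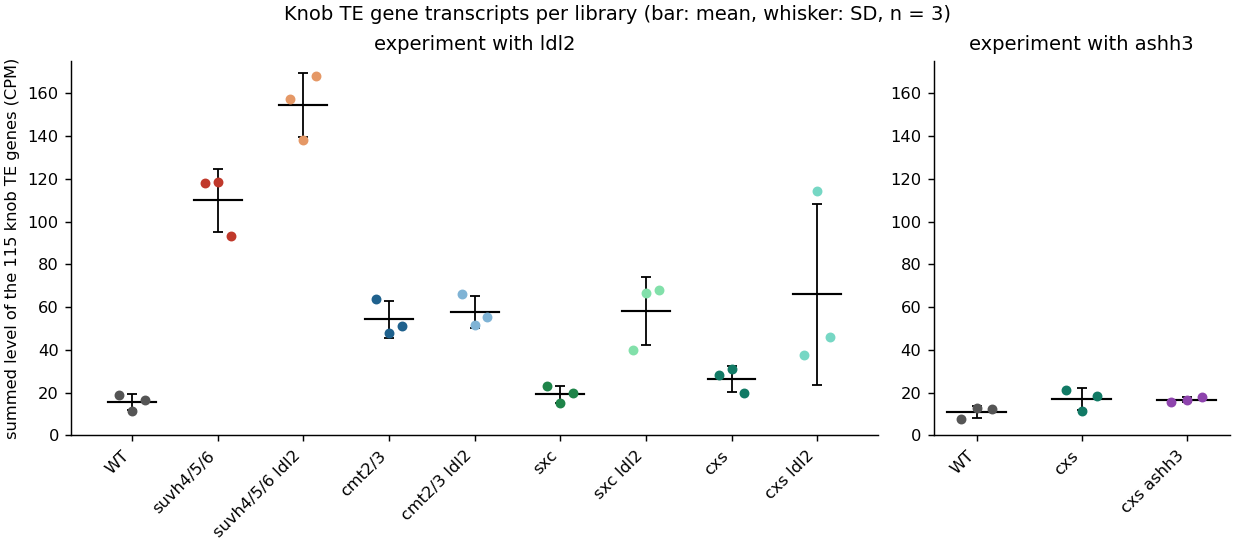
Summed level of the 115 knob TE genes in CPM (vertical axis) for each library (points) by genotype, with the mean as a bar and the SD as whiskers (n = 3), in the experiment with ldl2 (left) and the experiment with ashh3 (right). The suvh4/5/6 libraries sit between 93.1 and 119 CPM, above all WT, sxc and cxs libraries.

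The transcripts came from a few places in the window. In suvh4/5/6 the 17 members that start 400 to 500 kb into the window summed to 45.1 CPM, mostly AT4G04000, and the 13 members at 700 to 800 kb to 26.1 CPM. The 30 members from 100 to 300 kb summed to 0.597 and 0.213 CPM in their 2 stretches of 100 kb. In sxc the members at 400 to 500 kb stood at 1.44 CPM against 0.971 CPM in WT, and in sxc ldl2 at 26.3 CPM.

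**Figure D2:**
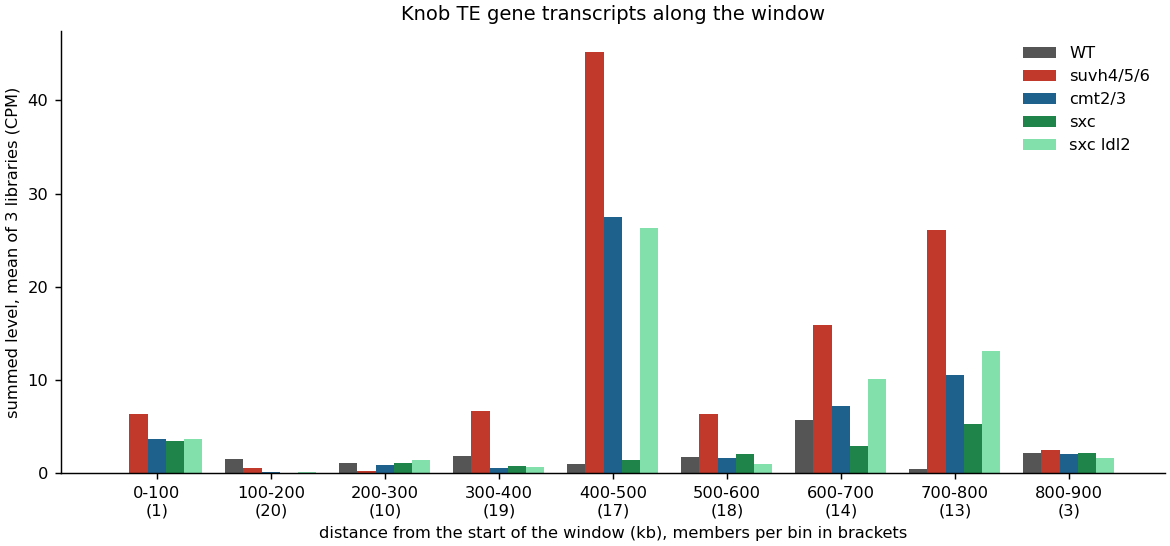
Summed level of the knob TE genes in CPM (vertical axis, mean of 3 libraries) in 9 stretches of 100 kb by distance from the start of the window, for WT, suvh4/5/6, cmt2/3, sxc and sxc ldl2; members per stretch are in brackets. The stretch at 400 to 500 kb holds 45.1 CPM in suvh4/5/6, 1.44 in sxc and 26.3 in sxc ldl2.

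Before the values of single members, the sequences at the start of 4 of them are shown, because they carry the clearest patterns below: 3 members silent in WT and transcribed in every mutant and F1 genotype, and 1 member transcribed in WT and lost in suvh4/5/6. Each sequence is 300 bases of TAIR10.1, from 250 bases before to 50 after the annotated start, read on the gene's annotated strand from 5′ to 3′ and taken from the RefSeq assembly. Capitals mark the letters TGGTATCAGAGC. These letters are known as the start of the primer binding site of many plant LTR retrotransposons, which pairs with the 3′ end of the initiator methionine tRNA and primes reverse transcription. They were read from the annotated tRNA-Met genes, as the reverse complement of the last 9 bases and the added CCA.
AT4G03530, chr4:1565818-1566117, plus strand: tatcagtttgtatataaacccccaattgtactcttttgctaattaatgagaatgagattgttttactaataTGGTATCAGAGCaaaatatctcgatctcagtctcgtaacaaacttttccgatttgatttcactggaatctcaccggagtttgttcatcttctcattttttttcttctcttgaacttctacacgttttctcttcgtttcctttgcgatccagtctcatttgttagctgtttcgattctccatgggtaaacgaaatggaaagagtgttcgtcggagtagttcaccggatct
AT4G04426, chr4:2206159-2206458, plus strand: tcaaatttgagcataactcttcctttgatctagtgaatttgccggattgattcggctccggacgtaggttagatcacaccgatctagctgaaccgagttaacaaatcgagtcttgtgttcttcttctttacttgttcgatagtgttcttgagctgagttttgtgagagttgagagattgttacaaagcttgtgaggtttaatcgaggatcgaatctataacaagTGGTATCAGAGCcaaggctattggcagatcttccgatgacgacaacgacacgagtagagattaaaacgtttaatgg
AT4G04560, chr4:2288337-2288636, minus strand: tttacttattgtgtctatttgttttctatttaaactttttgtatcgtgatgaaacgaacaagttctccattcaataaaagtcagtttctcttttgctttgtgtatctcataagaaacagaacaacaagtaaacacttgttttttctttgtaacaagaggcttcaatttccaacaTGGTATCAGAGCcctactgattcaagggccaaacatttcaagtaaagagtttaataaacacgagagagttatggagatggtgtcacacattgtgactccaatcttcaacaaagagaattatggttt
AT4G04410, chr4:2189265-2189564, plus strand: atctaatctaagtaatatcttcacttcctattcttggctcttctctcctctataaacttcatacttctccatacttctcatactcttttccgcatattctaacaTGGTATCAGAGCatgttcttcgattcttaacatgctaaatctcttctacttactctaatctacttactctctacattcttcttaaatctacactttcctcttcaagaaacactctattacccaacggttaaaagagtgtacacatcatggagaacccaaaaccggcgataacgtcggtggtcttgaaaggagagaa

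The motif began 179 bases before the start of AT4G03530, 26 before AT4G04426, 76 before AT4G04560 and 146 before AT4G04410. It was searched on both strands of the same window of every TE gene, and was chosen after these values and sequences had been seen. It stood in 8 of the 115 member windows, or 6.96%, all on the annotated strand, and in 5.74% of the windows of all 3903 TE genes. The other 4 members with it were AT4G04420, AT4G03650, AT4G03840 and AT4G04600. AT4G04420 had at most 6 counts in any library and AT4G04600 at most 10. AT4G03840 had at most 3, and AT4G03650 had 22 counts in replicate 2 of cxs ldl2 and at most 4 elsewhere. The few counts of AT4G04600 were 7, 9 and 8 in suvh4/5/6 and 0, 0 and 1 in WT. Its log2 fold change of 4.10 ± 1.21 SE did not pass the test (edgeR adjusted P = 0.0791). Among all TE genes 222 had the motif on the annotated strand, of which 29.7% passed the test as higher in suvh4/5/6 and 22.1% in sxc, against 9.89% and 2.88% of the 3681 others. Copies of 1 element share both the motif and their reads, so these shares are a description.

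Loss of SUVH4/5/6 raised 11 members over WT and lowered 1 (edgeR quasi-likelihood F test, adjusted P below 0.05 over all genes, the rule for every call below), which is 9.57% and 0.870% of the members. Of all genes 2.09% were called higher and 0.527% lower, and of pericentromeric TE genes 9.09% and 0.157%. Loss of CMT2/3 raised 8 members and lowered 0 (percent called over all genes 2.32 and 1.36). Of all TE genes, 25.2% of those with the motif and 4.73% of the others were called higher. Without adjustment, 10 members were higher and 0 lower at P below 0.05 in cmt2/3, and DESeq2 called 8. All 8 members called in cmt2/3 were among the 11 called in suvh4/5/6. The 3 others were AT4G04130, AT4G04170 and AT4G04430. The median log2 fold change over all members was 0 in both comparisons, as most had no or few counts.

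AT4G03530 (plus strand, 1566068 to 1567192) had 0 counts in all 3 WT libraries. It had 5.15, 6.91 and 6.97 CPM in suvh4/5/6, 4.30, 3.97 and 2.72 CPM in cmt2/3, 3.21, 3.19 and 3.95 CPM in sxc and 4.10, 6.22 and 3.97 CPM in cxs. Its libraries did not overlap WT in any of the 8 other genotypes. The level was at least 71.7-fold higher in suvh4/5/6 and at least 39.0-fold higher in sxc, counting WT as 3 counts over its 3 libraries (edgeR adjusted P = 3.92e-09 and 9.36e-08). The mean of sxc was 68.9% and that of cxs 95.3% of the mean of the 2 parents. The F1 plants together did not pass the test against suvh4/5/6 (log2 fold change −0.65 ± 0.27 SE, edgeR adjusted P = 0.553) or against cmt2/3 (0.14 ± 0.28, edgeR adjusted P = 1). Of the sequence of this member 89.8% has a copy of at least 95% identity elsewhere, the longest being 1010 bases at chr1:26366997-26368006 with 97.0% identity, so that reads of the 2 places may be hard to separate.

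AT4G04426 (plus strand, 2206409 to 2208498) behaved alike, and has no stretch of 100 bases at 95% identity elsewhere. It had 0 counts in WT, 6.68, 6.98 and 6.12 CPM in suvh4/5/6, and 7.63, 6.05 and 5.05 CPM in cmt2/3. In sxc it had 4.10, 2.45 and 3.09 CPM and in cxs 5.45, 5.39 and 5.15 CPM. It was at least 74.6-fold higher in suvh4/5/6, at least 70.6-fold in cmt2/3 and at least 36.3-fold in sxc (edgeR adjusted P = 1.01e-11, 1.72e-11 and 5.4e-10). The sxc mean was 50.05% and the cxs mean 83.0% of the mean of the parents.

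AT4G04560 (minus strand, 2283665 to 2288386) was the third of this kind. It had 0 counts in WT, 1.69, 2.56 and 1.13 CPM in suvh4/5/6, 3.77, 2.55 and 3.30 CPM in cmt2/3, 2.58, 2.53 and 0.494 CPM in sxc and 2.29, 1.04 and 1.83 CPM in cxs. It was at least 20.3-fold higher in suvh4/5/6 and at least 21.1-fold higher in sxc (edgeR adjusted P = 0.000592 and 0.00104). The sxc call rests on 2 of the 3 libraries, with 29 and 31 counts, beside 4 in the remaining library.

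These were the 3 members called higher in sxc, and they were 3 of the 4 called in cxs (percent of all genes called higher 0.711 and 0.714). Calls were more frequent among TE genes as a whole. Of TE genes with the motif, 22.1% were called higher in each cross, and of the others 2.88% in sxc and 3.37% in cxs. In sxc 0 members were called lower, where 1 was lower at an unadjusted P below 0.05, and in cxs 0, where 2 were (percent of all genes called lower 0.146 and 0.0655); DESeq2 called 3 and 5 members in all. The fourth in cxs was AT4G04105, with 6, 5 and 4 counts. It lost its call in the test when any 1 library was left out, after which the 3 members named above were called each time.

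A second set of members was higher than WT in both parents and near WT in sxc. In cxs their counts were low but for AT4G04000, and 1 of them, AT4G04105, was called higher than WT there. The largest was AT4G04000 (annotated on the plus strand and counted on the minus strand, 1920423 to 1925005), which led the knob per length too, with 13.6% of its summed level in suvh4/5/6 in TPM, a unit that accounts for gene length. It had 0 counts in WT and 31.6, 31.3 and 27.98 CPM in suvh4/5/6, at least 343-fold higher (edgeR adjusted P = 6.84e-06). In cmt2/3 it had 31.6, 15.9 and 19.9 CPM, at least 254-fold higher (edgeR adjusted P = 3.12e-05). In sxc its counts were 0, 1 and 3, and its mean was 0.571% of the mean of the parents. In cxs its counts were 30, 1 and 11, or 4.62% of that mean. The F1 plants were lower than suvh4/5/6 by a log2 fold change of −6.16 ± 0.66 and lower than cmt2/3 by −5.72 ± 0.68 (edgeR adjusted P = 3.02e-06 and 4.89e-05). No stretch of at least 100 bases of this member had 95% identity elsewhere in the genome.

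AT4G03990 (minus strand, 1916461 to 1917816) lies downstream of AT4G04000 on the strand that was counted for both. It had 0 counts in WT, 1.37, 0.853 and 1.13 CPM in suvh4/5/6, and 3.16, 1.42 and 2.13 CPM in cmt2/3. In sxc it had 0, 0 and 1 count and in cxs 2, 0 and 3. Its whole length has copies of at least 95% identity, so its reads may come from elsewhere. Its call in suvh4/5/6 (edgeR adjusted P = 0.0158) was lost in 3 of 11 alternatives.

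AT4G04390 (plus strand, 2142825 to 2147224) had 0 counts in WT and 19.1, 15.4 and 11.0 CPM in suvh4/5/6, at least 172-fold higher (edgeR adjusted P = 1.18e-06). In cmt2/3 it had 0.527, 2.08 and 1.75 CPM, at least 16.4-fold above WT, and in sxc 1, 0 and 0 counts. AT4G04105 (plus strand, 1969059 to 1972381) had 0 counts in WT, 5.15, 7.53 and 5.28 CPM in suvh4/5/6, 1.40, 2.83 and 2.04 CPM in cmt2/3, and 1, 0 and 0 counts in sxc. AT4G04590 (plus strand, 2298267 to 2300006) had 0, 0 and 1 count in WT, 4.99, 3.80 and 5.84 CPM in suvh4/5/6, 0.614, 0.189 and 0.679 CPM in cmt2/3, and 1, 2 and 1 counts in sxc. In cxs AT4G04390 had 8, 0 and 2 counts, AT4G04105 6, 5 and 4, and AT4G04590 2, 3 and 2. Among these genotypes all 3 thus had their highest mean in suvh4/5/6 and were at the edge of detection in sxc. For AT4G04105 the difference between suvh4/5/6 and cmt2/3 was not called.

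With both crosses pooled, the F1 plants were lower than suvh4/5/6 in 10 members and higher in 1 (percent of all genes called lower 1.21 and higher 0.0982). Of TE genes, 27 of the 222 with the motif and 295 of the 3681 others were called lower. The F1 plants were lower than cmt2/3 in 4 members, AT4G03990, AT4G04000, AT4G04105 and AT4G04390, and higher in 0 (percent of all genes called 0.28 and 0.137), where 1 member was higher at an unadjusted P below 0.05 and DESeq2 called 4 in all. AT4G03530, AT4G04426 and AT4G04560 were in neither set. For AT4G04426 all F1 libraries still lay below those of suvh4/5/6, by a log2 fold change of −0.67 ± 0.18 (edgeR adjusted P = 0.0889). Between the reciprocal crosses 0 members were called in edgeR or DESeq2 (percent of all genes called higher in cxs 0.00298, lower 0). At an unadjusted P below 0.05, 7 members were higher in cxs and 0 lower.

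**Figure D3:**
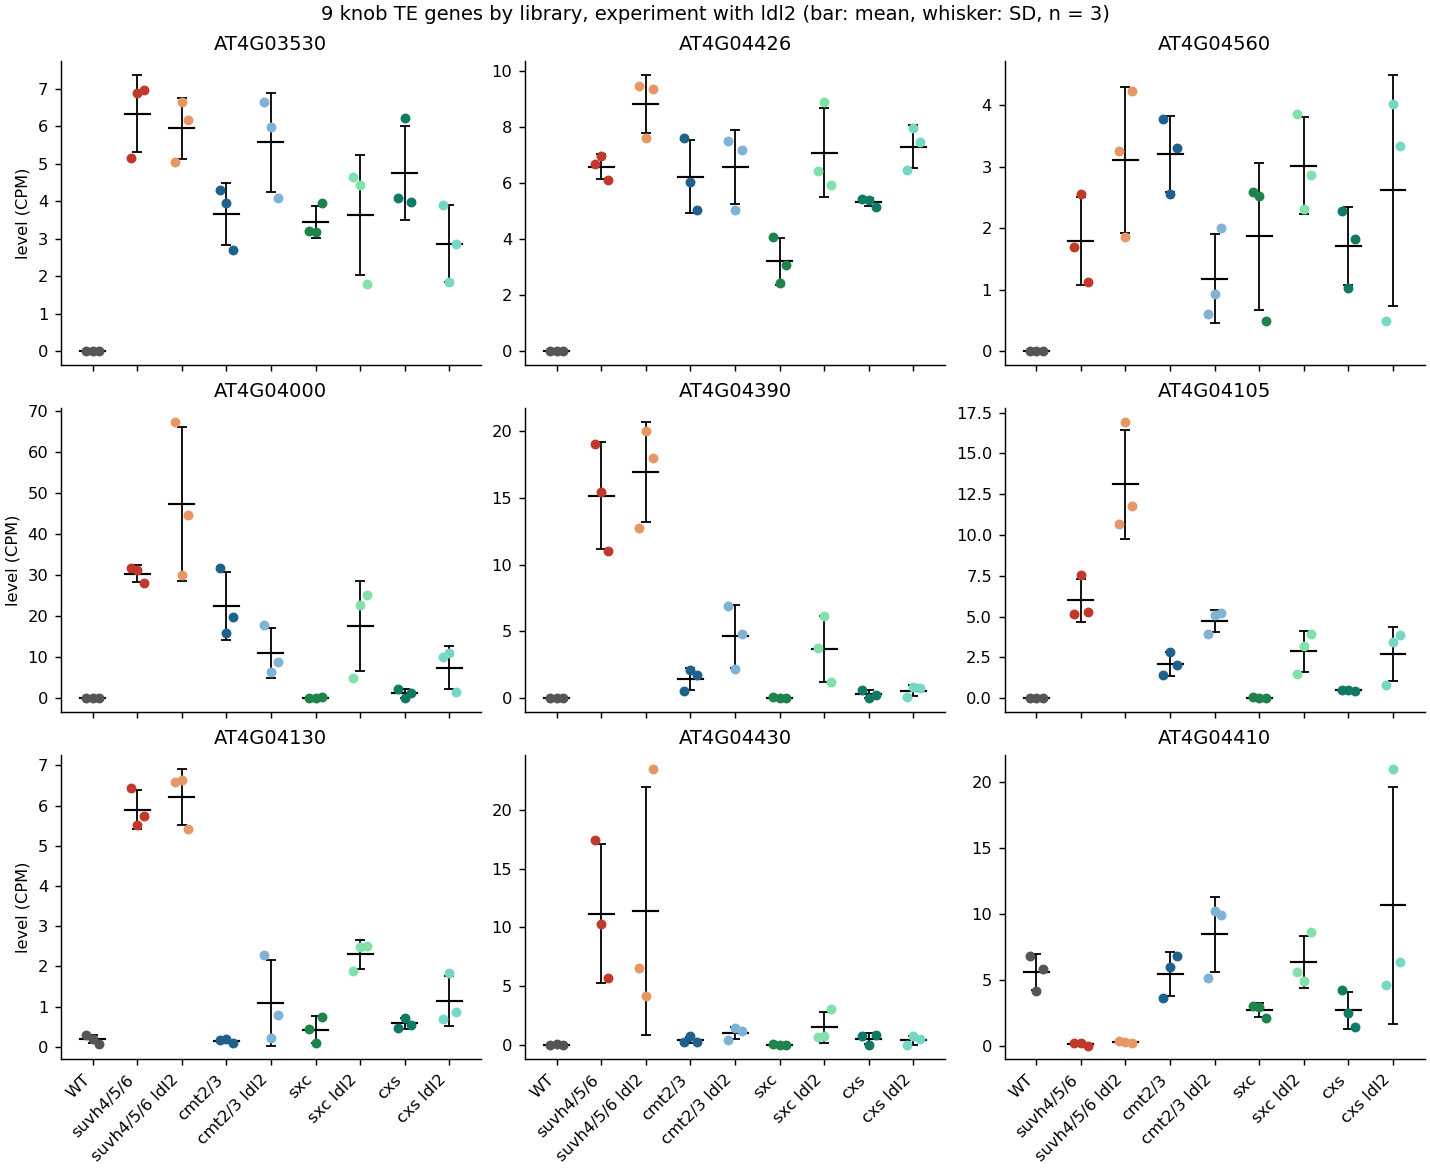
Level in CPM (vertical axes, each panel with its own range) of 9 knob TE genes in each library (points) of the 9 genotypes of the ldl2 experiment, with mean (bar) and SD (whisker, n = 3). In the top row the F1 plants stay above WT, in the middle row sxc is at or under 0.371 CPM, and AT4G04410 is lost in both suvh4/5/6 genotypes only.

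Another set was raised in suvh4/5/6 and not called in cmt2/3. Directly between the parents, 6 members were higher in suvh4/5/6 and 1 lower (percent of all genes called 0.634 and 0.0446). Of TE genes with the motif 6.76% were called higher, and of the others 3.78%. AT4G04130 (plus strand, 1977183 to 1982785) had 0.283, 0.196 and 0.0763 CPM in WT and 6.44, 5.51 and 5.75 CPM in suvh4/5/6. In cmt2/3 it had 0.176, 0.189 and 0.0970 CPM, within the WT range. The difference between the parents was a log2 fold change of 5.15 ± 0.66 (edgeR adjusted P = 4.16e-05). AT4G04430 (minus strand, 2208776 to 2210863), which converges on AT4G04426, had 0, 1 and 0 counts in WT, 17.5, 10.3 and 5.75 CPM in suvh4/5/6 and 0.263, 0.756 and 0.291 CPM in cmt2/3 (difference 4.65 ± 0.85, edgeR adjusted P = 0.00328). Its F1 counts were 1, 0 and 0 in sxc and 10, 0 and 8 in cxs.

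AT4G04170, counted antisense, had 0 counts in WT, 0.724, 2.25 and 2.92 CPM in suvh4/5/6 and 1, 1 and 0 counts in cmt2/3. Its difference between the parents (edgeR adjusted P = 0.04) was lost in 6 of 11 alternatives, and that of AT4G03923 (edgeR adjusted P = 0.0452) in 7. AT4G04390 and AT4G04590 were in this list as well, by 3.39 ± 0.59 and 3.27 ± 0.54 on the log2 scale (edgeR adjusted P = 0.00249 and 0.00115).

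AT4G04410 went the other way. This member (plus strand, 2189515 to 2193763) was 1 of only 2 with a mean of at least 1 CPM in WT, at 6.79, 4.12 and 5.80 CPM. The other was AT4G04655. In suvh4/5/6 it had 2, 3 and 0 counts, or 0.161, 0.233 and 0 CPM, and in suvh4/5/6 ldl2 0.361, 0.266 and 0.184 CPM. It fell by 5.22 ± 0.69 and by 4.31 ± 0.63 on the log2 scale (edgeR adjusted P = 1.25e-05 and 5.53e-05), and these calls held in every alternative run. In cmt2/3 it stood at 3.597, 5.95 and 6.79 CPM, with a log2 fold change from WT of −0.04 ± 0.45 (edgeR adjusted P = 1). The parents differed by −5.19 ± 0.69 (edgeR adjusted P = 7.67e-05). In the F1 plants it was back, at 3.03, 2.94 and 2.10 CPM in sxc and 4.18, 2.49 and 1.40 CPM in cxs, higher than suvh4/5/6 by 4.19 ± 0.68 (edgeR adjusted P = 0.000449). Each F1 cross lay below WT by a log2 fold change of −1.04 ± 0.47 and −1.02 ± 0.47, which did not pass the test (edgeR adjusted P = 0.564 and 1). Its best alignment elsewhere covered 4260 bases at chr1:16552283-16556524 with 89.9% identity.

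Other members seen in WT were at low levels. AT4G04293 (plus strand, 2076832 to 2077361) had 8, 4 and 19 counts in WT and, being short, led the knob in WT per length with 2.55 ± 1.62 TPM against 2.04 ± 0.505 TPM of AT4G04410, a difference within their spread. AT4G04655, counted antisense, had 12, 18 and 45 counts in WT and 20, 19 and 11 in suvh4/5/6 (edgeR adjusted P = 0.738). AT4G03660, AT4G03975 and AT4G03976 stood among the 5 highest by TPM in WT on 5 counts each, all of them in runs of shared counts. AT4G04273, among the 5 highest in WT of the ashh3 experiment, had 0, 2 and 0 counts there. AT4G03816, counted antisense, had 6, 7 and 12 counts in WT and 2, 1 and 0 in suvh4/5/6. It was called lower in suvh4/5/6 ldl2, with 1, 0 and 0 counts (log2 fold change −4.15 ± 1.13, edgeR adjusted P = 0.0354), a call lost in 6 of 11 alternatives.

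Adding ldl2 to the parents changed few members. In suvh4/5/6 0 members were called for ldl2 in edgeR or DESeq2, and at an unadjusted P below 0.05 2 were higher and 0 lower (percent of all genes called 0.0208 and 0.00298). In cmt2/3 AT4G04590 was called higher and 0 lower (percent of all genes called 0.0565 and 0.00595; 7 and 1 at an unadjusted P below 0.05, and 2 called in DESeq2), with 0.614, 0.189 and 0.679 CPM in cmt2/3 and 5.68, 3.10 and 1.80 CPM in cmt2/3 ldl2, and this call was lost in 7 of 11 alternatives. Against WT, suvh4/5/6 ldl2 had 16 members higher and 2 lower (percent of all genes called 2.94 and 1.01) and cmt2/3 ldl2 8 higher and 0 lower (1.12 and 0.107; 13 and 0 at an unadjusted P below 0.05, and 10 called in DESeq2). The 8 were the members called in cmt2/3. Calls were more frequent among TE genes than among all genes. Of TE genes with the motif, 32.0% were called higher in suvh4/5/6 ldl2 and 26.1% in cmt2/3 ldl2, and of the others 11.0% and 5.65%. The 5 called in suvh4/5/6 ldl2 and not in suvh4/5/6, picked out after their values were seen, were AT4G03910, AT4G03923, AT4G03970, AT4G04010 and AT4G04635. AT4G03970 had 8, 11 and 9 counts in suvh4/5/6 and 32, 103 and 69 in suvh4/5/6 ldl2.

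In sxc, members of the second set rose with ldl2. In sxc ldl2 against sxc, 5 members were called higher and 0 lower (percent of all genes called 0.119 and 0.00893; 9 and 0 at an unadjusted P below 0.05, and 7 called in DESeq2). Of TE genes with the motif 1.8% were called higher, and of the others 0.896%. AT4G04000 went from 0, 0.0817 and 0.371 CPM to 4.95, 22.7 and 25.0 CPM, a log2 fold change of 6.99 ± 1.04 (edgeR adjusted P = 0.00222). AT4G04105 went from 1, 0 and 0 counts to 15, 36 and 44 (6.08 ± 0.78, edgeR adjusted P = 0.000481), and AT4G04390 from 1, 0 and 0 counts to 38, 69 and 13 (6.43 ± 1.06, edgeR adjusted P = 0.00694). AT4G03990 went from 0, 0 and 1 count to 6, 55 and 44 (6.18 ± 1.19, edgeR adjusted P = 0.032). The fifth, AT4G04426, rose from 4.10, 2.45 and 3.09 to 6.44, 8.89 and 5.93 CPM (1.14 ± 0.22, edgeR adjusted P = 0.0359). All 5 calls were lost when only the sxc and sxc ldl2 libraries were fitted, where 0 members were called.

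In cxs ldl2 against cxs 0 members were called in edgeR (percent of all genes called 0.0565 higher and 0.0446 lower), 15 were higher and 1 lower at an unadjusted P below 0.05, and DESeq2 called 6 higher. Of the 15, 7 had over 75% of their cxs ldl2 counts in replicate 2. These were AT4G03640, AT4G03650, AT4G03660, AT4G03670, AT4G03680, AT4G03690 and AT4G03790, with 21 or 22 counts there in each of the first 6 and 7 in the last, and those of AT4G03660 to AT4G03680 were the same in every library, so that they are not separate measurements. Without replicate 2, 6 members were higher and 0 lower at an unadjusted P below 0.05, and 0 were called. AT4G04000 had 2.37, 0.104 and 1.18 CPM in cxs and 9.98, 11.1 and 1.43 CPM in cxs ldl2, with overlap. AT4G04105 had 0.473, 0.518 and 0.430 CPM in cxs and 0.783, 3.44 and 3.90 CPM in cxs ldl2, without overlap. AT4G04390 had 8, 0 and 2 counts in cxs and 1, 10 and 9 in cxs ldl2 (log2 fold change 0.86 ± 0.90, edgeR adjusted P = 0.592). Whether ldl2 acted differently in the 2 crosses was tested directly, and 0 members were called in edgeR and in DESeq2, with 1 higher and 5 lower at an unadjusted P below 0.05 (percent of all genes called 0 in both directions). Without replicate 2 of cxs ldl2 the unadjusted counts were 0 and 7, and 0 were called. The 7 lower were AT4G03990, AT4G04000, AT4G04105, AT4G04390 and AT4G04426, all called for ldl2 in sxc, and AT4G04130 and AT4G04430. Their log2 differences ran from −6.04 for AT4G04430 to −0.75 for AT4G04426, with −4.89 for AT4G04000. These 7 were listed by that unadjusted P, so their shared direction follows from how they were picked. No difference between the crosses passed the test. The calls for ldl2 in sxc and the difference between the crosses also share the sxc libraries.

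Pooled over the 2 crosses, ldl2 raised 7 members and lowered 0 in edgeR (percent of all genes called 0.289 and 0.0327; 10 and 0 at an unadjusted P below 0.05, and 8 called in DESeq2). These were AT4G03990, AT4G04000, AT4G04105, AT4G04390, AT4G04410, AT4G04426 and AT4G04590. Of TE genes with the motif 4.95% were called higher in the pooled comparison, and of the others 1.87%. In cxs alone AT4G04390 changed by 0.86 ± 0.90 and was not called, so that its pooled call rests on sxc. The log2 fold change was 4.75 ± 0.65 for AT4G04000, 4.29 ± 0.47 for AT4G04105 and 3.08 ± 0.47 for AT4G04590 (edgeR adjusted P = 0.000604, 3.22e-05 and 0.00131). AT4G04410 rose by 1.59 ± 0.33 and AT4G04426 by 0.80 ± 0.15 (edgeR adjusted P = 0.0307 and 0.0181). Without replicate 2 of cxs ldl2, 4 members were called, AT4G03990, AT4G04000, AT4G04105 and AT4G04590; AT4G04410, with 250 of its counts in that library, then had a log2 fold change of 1.12 (edgeR adjusted P = 0.124). Leaving out replicate 2 or 3 of sxc, or replicate 2 or 3 of cxs, likewise left 4 calls. The effect of ldl2 in the F1 plants minus that in suvh4/5/6 was 4.11 ± 0.91 for AT4G04000 and 3.16 ± 0.66 for AT4G04105 on the log2 scale, neither past the test (edgeR adjusted P = 0.354 and 0.206). Over the members 0 were called for this difference (percent of all genes called 0.0208 higher and 0 lower), 8 were higher and 0 lower at an unadjusted P below 0.05, and DESeq2 called AT4G04000 alone. Without replicate 2 of cxs ldl2 the differences were 3.92 and 3.07 (edgeR adjusted P = 0.657 and 0.356), and 0 members were called, with 6 higher at an unadjusted P below 0.05.

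Against WT, sxc ldl2 had 10 members higher and 0 lower (percent of all genes called 1.55 and 0.226; 12 and 0 at an unadjusted P below 0.05, and 10 called in DESeq2). They were 10 of the 11 called in suvh4/5/6, without AT4G04170. In cxs ldl2 7 were higher and 0 lower (1.11 and 0.277; 15 and 0 at an unadjusted P below 0.05, and 9 called in DESeq2), and 6 were called without its replicate 2. Of TE genes with the motif, 26.1% were called higher in sxc ldl2 and 24.8% in cxs ldl2, and of the others 5.19% and 4.86%. As a share of the mean of the 2 ldl2 parents, AT4G04000 stood at 60.2% in sxc ldl2 and 25.7% in cxs ldl2, AT4G04105 at 32.3% and 30.3%, and AT4G04390 at 34.3% and 5.11%. AT4G04426 stood at 92.0% and 94.7%. Without replicate 2 the cxs ldl2 shares were 19.6%, 26.2%, 3.78% and 90.4% in the same order. These comparisons share the WT libraries, so that their calls are not independent of each other.

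**Figure D4:**
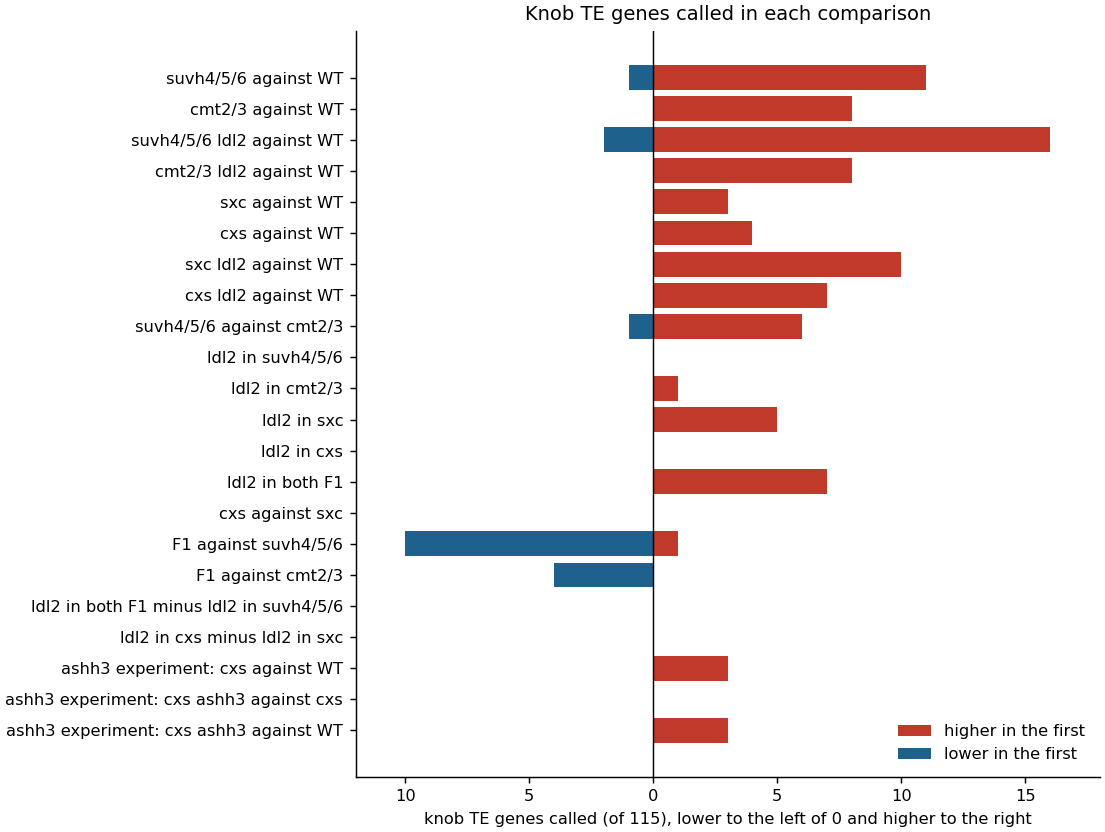
Number of the 115 knob TE genes called in each of 22 comparisons (horizontal axis, edgeR adjusted P below 0.05), with those higher in the first-named genotype to the right of 0 and those lower to the left. In suvh4/5/6 11 members were higher than WT, in sxc 3 and in sxc ldl2 10, and the F1 plants were lower than suvh4/5/6 in 10.

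The study lists 8 members among its TE genes regulated by LDL2, AT4G04000, AT4G04300, AT4G04420, AT4G04430, AT4G04545, AT4G04550, AT4G04560 and AT4G04655, and 1, AT4G04100, among those regulated by ASHH3. It chose both lists by CHG methylation in F1 plants, measured in other libraries than those used here. Of the 8, AT4G04000 was called higher with ldl2 in the pooled F1 comparison. AT4G04430 had 66 counts in the 6 ldl2 F1 libraries and 19 in the 6 others (2.43 ± 0.90 on the log2 scale, edgeR adjusted P = 0.37) and AT4G04560 192 and 120 (0.63 ± 0.42, edgeR adjusted P = 0.589). AT4G04655 had 187 and 98 (0.57 ± 0.41, edgeR adjusted P = 0.626), and 85 of the 187 were in replicate 2 of cxs ldl2, without which the log2 fold change was 0.26 (edgeR adjusted P = 1). AT4G04300 had 23 and 8 counts, 14 of the 23 in that library, and was not called. AT4G04420, AT4G04545 and AT4G04550 had at most 4 counts on either side. AT4G04100 had at most 2 counts in any library of the ldl2 experiment and 1 count in the whole ashh3 experiment.

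In the ashh3 experiment, against WT, 3 members were called higher in cxs and the same 3 in cxs ashh3, AT4G03530, AT4G04426 and AT4G04560, with 0 lower in each (percent of all genes called 2.37 and 3.25 in cxs, 2.04 and 3.39 in cxs ashh3). At an unadjusted P below 0.05, 6 were higher and 1 lower in cxs, 4 and 1 in cxs ashh3, and DESeq2 called 3 in each. AT4G03530 had 0 counts in WT, 3.23, 2.89 and 4.30 CPM in cxs and 4.04, 3.76 and 3.59 CPM in cxs ashh3. AT4G04426 had 0 counts in WT, 4.02, 2.02 and 2.75 CPM in cxs and 3.92, 4.29 and 3.01 CPM in cxs ashh3. They were at least 31.8-fold and at least 26.8-fold higher in cxs than in WT (edgeR adjusted P = 4.38e-07 and 3.27e-06).

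AT4G04560 had 0, 0 and 1 count in WT, 19, 8 and 4 in cxs and 4, 18 and 6 in cxs ashh3, and its call was lost in 4 of 10 alternatives in each comparison. Between cxs ashh3 and cxs 0 members were called in edgeR and DESeq2, and 0 passed an unadjusted P below 0.05 (percent of all genes called 0.557 and 0.506). The log2 difference was 0.14 ± 0.30 for AT4G03530, 0.35 ± 0.34 for AT4G04426 and −0.02 ± 0.71 for AT4G04560. AT4G04293 had 1, 4 and 8 counts in WT, 9, 10 and 6 in cxs and 15, 8 and 24 in cxs ashh3, where it led the members per length with 31.6% of their summed TPM. It was not called against WT in cxs (log2 fold change 0.86 ± 0.67, edgeR adjusted P = 0.622) or cxs ashh3 (1.92 ± 0.64, edgeR adjusted P = 0.0942), nor between the F1 genotypes (1.06 ± 0.59, edgeR adjusted P = 0.58). AT4G04410 had 5.67, 6.31 and 6.25 CPM in WT, 3.53, 2.02 and 4.18 CPM in cxs and 2.69, 1.99 and 4.63 CPM in cxs ashh3. The groups did not overlap WT, but the differences of −0.92 ± 0.30 and −0.97 ± 0.30 did not pass the test (edgeR adjusted P = 0.0875 and 0.0698).

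**Figure D5:**
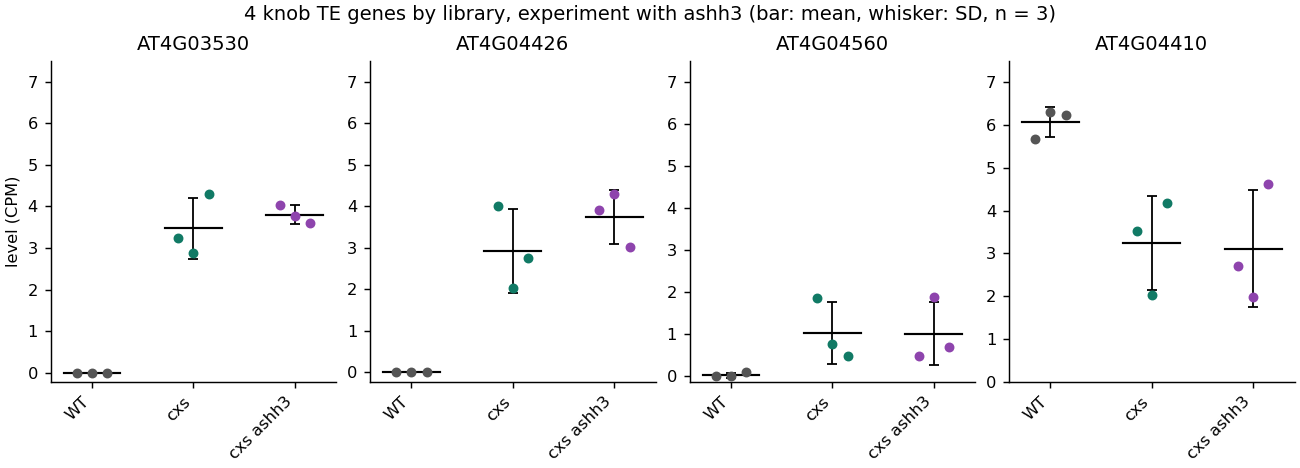
Level in CPM (vertical axis) of 4 knob TE genes in each library (points) of WT, cxs and cxs ashh3, with mean (bar) and SD (whisker, n = 3). AT4G03530 is at 0 in WT and between 2.89 and 4.30 CPM in both F1 genotypes, and AT4G04410 is at 5.67 to 6.31 CPM in WT and at or under 4.63 CPM in the F1 plants.

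In sequence the members resembled other TE genes. Their median GC content was 40.6% against 41.6% in pericentromeric and 41.0% in other TE genes, and the median density of CAG and CTG, trinucleotides of the CHG kind that CMT3 methylates, was 26.0 per kb against 24.7 and 25.0. Within the set, AT4G04410 had 3.77 such sites per kb, AT4G04130 32.7 and AT4G04000 46.0. At 95% identity over at least 200 bases, 35 members had a copy elsewhere in the genome, 4 of them within the window, and 27 had such copies (of at least 100 bases) over 50% of their length or more. The other genes of the window that are no TE genes numbered 112, of which 4 were higher and 0 lower in suvh4/5/6.

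Of 17 genes of the silencing machinery, including those mutated, 3 were lower and 0 higher in suvh4/5/6 against WT, and 3 and 0 in cmt2/3, sxc and cxs (percent of all genes called lower 0.527, 1.36, 0.146 and 0.0655). Most were the mutated genes themselves. Besides IBM1, they were SUVH4 and SUVH5 in suvh4/5/6, and CMT3 and AT5G49160 in cmt2/3. In sxc and cxs they were SUVH4 and CMT3, of which F1 plants have 1 functional copy. IBM1 (AT3G07610), a histone H3K9 demethylase that keeps genes free of H3K9me, was among those lower in each of the 8 genotypes against WT in the ldl2 experiment, by 1.23 on the log2 scale in suvh4/5/6 and by 1.03 in sxc. For ldl2, 0 of the 17 were called in suvh4/5/6, cmt2/3 and cxs, and SUVH6 was called higher in sxc ldl2, with 37.98 to 51.01 CPM against 15.4 to 16.3 CPM in sxc. For ashh3 in cxs 0 were called.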

How the data were processed

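mRNA-seq of 2-week-old Arabidopsis seedlings was examined in 36 libraries, 27 of the ldl2 experiment and 9 of the ashh3 experiment. Per the study's methods the authors aligned reads to TAIR10 with STAR, which counted reads per gene, and for TE genes kept the strand with the larger sum over all samples. In the deposited tables the antisense strand also stood for 5516 genes that are no TE genes in the ldl2 experiment and for 3997 in the other. The deposited values are raw counts per gene, not normalized. Another 12 count columns that the labels do not tie to a sample were not used.

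Counts of each table were scaled by TMM, and all genotypes of a table were fitted together with the quasi-likelihood F test of edgeR 4.0.16 without a filter on low counts. P values were adjusted over all 33602 genes by the Benjamini-Hochberg method, and a gene was called at an adjusted P below 0.05. Error terms of log2 fold changes are standard errors. CPM used TMM-scaled library totals, and TPM used exon lengths. Against a genotype without counts a fold is given as a lower bound, with that genotype set to 3 counts over its libraries. Such bounds cover counting error only, and reads without molecular identifiers are not independent molecules. The steps were tested on simulated data. Alternatives were RLE scaling, filterByExpr, a fit of the compared genotypes only, the replicate number as a block, DESeq2 1.42.0 and leaving out each library in turn. Sequences were read from the RefSeq assembly TAIR10.1, in which all 115 members had the positions of the count tables, and copies were found with BLAST+.

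The members, gene lists and comparisons were chosen with earlier results of these data known. Named with values were the members in the study's 2 lists, the 20 with the largest change in suvh4/5/6 and the 5 largest in each other comparison (called, at least 1 CPM, no overlap of libraries), the 5 highest by TPM in WT of each experiment, all called lower against WT, and the genes at the ends of the window. Counts of members are compared with the share of all genes called, and in some comparisons also with that of TE genes.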

Additional observations from a re-analysis of the deposited data

How the results depend on the processing

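The numbers of members called in 22 comparisons were recomputed under 5 other fits. In 98 of 110 cases the count stayed within 1.5 times. Fitting the compared genotypes only gave 2 calls in cxs against WT (4 in the full fit), 2 in cxs ldl2 against WT (7), 0 for ldl2 in sxc (5), 2 for ldl2 in both F1 crosses (7) and 3 for ldl2 in cmt2/3 (1); that fit has fewer libraries. For ldl2 in cmt2/3 RLE scaling gave 0 and DESeq2 2. For ldl2 in cxs (0) filterByExpr gave 1 and DESeq2 6, and for the F1 effect of ldl2 minus that in suvh4/5/6 (0) DESeq2 gave 1. The cause was not tested.

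Same-numbered libraries were not paired, as 38 of 108 pairs in the ldl2 experiment and 1 of 9 in the ashh3 experiment had correlated deviations above 0.1. With the replicate number as a block, 0 members were called for ldl2 in cmt2/3, 1 for ldl2 in cxs, and 12 in suvh4/5/6 against WT.

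Leaving out 1 library gave 2 to 4 calls for ldl2 in sxc, 0 to 5 for ldl2 in cxs, 4 to 8 for ldl2 in both F1 crosses, 0 to 1 for ldl2 in cmt2/3, 0 to 1 for the F1 effect minus that in suvh4/5/6, and 11 to 12 in suvh4/5/6 against WT. The 5 calls for ldl2 in cxs came without replicate 1 of cxs ldl2. Over 74 values of named members, no log2 fold change changed sign, and 80 of 860 values lost their call. Members named for a call without overlap of libraries could hardly change sign, so the absence of such changes is no measure of robustness.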
